A study of Homo sapiens with 2 samples.

Results

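The 10 genes of fatty acid synthesis, desaturation and elongation were examined in U87MG, an established human glioblastoma line, with 1 library labelled TRIP13 shRNA set against 1 control shRNA library. The genes are ACLY, ACACA, FASN, SCD, SCD5, FADS1, FADS2, ELOVL1, ELOVL5 and ELOVL6, which make up 10 of the 58735 genes in the deposited table. They were selected by gene name, as a lipid pathway proposed after differences between these libraries had been seen, so their values between the libraries are a description and carry no test. By label, the first came from cells given a lentiviral shRNA against TRIP13, an ATPase of the spindle checkpoint, and the other from cells given the control vector pGIPZ-CTRL. Both were selected with puromycin into stable lines and grown for a week under stem cell conditions as glioma spheres, and the labels do not say how many clones each library stands for. No difference below could be set against a spread between replicates, since there were none.

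Fatty acid synthesis turns citrate into cytosolic acetyl-CoA, carboxylates it to malonyl-CoA and joins these units into palmitate. Elongases lengthen palmitate and longer fatty acids at the endoplasmic reticulum, and desaturases introduce cis unsaturation, either into stearate to give oleate or into dietary polyunsaturated precursors to give arachidonate and related acids. Many of these genes are known targets of SREBP transcription factors, which also drive sterol synthesis, and of the oxysterol receptor LXR. Glioblastoma cells are known to use this pathway for membranes and for storage in lipid droplets.

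TRIP13 itself had 23.1 FPKM (1593 reads) in the library labelled TRIP13 shRNA and 11.9 FPKM (819 reads) in the control library, which goes against the label. Directions below are therefore directions between the libraries as labelled, and whether the labels are exchanged was not tested. An exchange would turn every direction: SCD, rank 2 from the lowest below, would be rank 2 from the highest, and 4 of the 10 genes would be higher by at least 2-fold beside 4.19% of all genes. FPKM divides the fragments of a gene by its exon length and by a sequencing total. The deposited values corresponded to 19903836 reads in the library labelled TRIP13 shRNA, against 18871063 in the control library, a depth ratio of 1.055 for which they were not corrected. Mitochondrially encoded genes took 4.40% of reads in the library labelled TRIP13 shRNA, against 4.0% in the control library. VIM and CD44, markers of mesenchymal glioma cells, stood at 427 and 112 FPKM in the library labelled TRIP13 shRNA, against 442 and 115 FPKM in the control library. Of 7 listed glioma sphere markers 4 passed the filter on low values given below, VIM, CD44, NES and OLIG2. NES, a neural progenitor marker, had 238 reads in the library labelled TRIP13 shRNA and 563 reads in the control library, 2.37-fold lower by reads. Its log2 ratio of (FPKM + 1), the scale used below, was -0.96, held back by the added 1 FPKM. OLIG2, a glial progenitor factor, had 22 reads in the library labelled TRIP13 shRNA and 177 reads in the control library. Its log2 ratio was -1.48, the one of the 4 past the 2-fold limit on that scale. SOX2 and PROM1 had 1 read each in the library labelled TRIP13 shRNA, against 2 and 5 reads in the control library. The astrocyte marker GFAP had 28 reads in the library labelled TRIP13 shRNA, against 92 reads in the control library. NES, OLIG2 and GFAP were thus lower alongside the fatty acid genes below, though GFAP did not pass the filter. VIM and CD44 differed little, while SOX2 and PROM1 had too few reads to give a direction. The part of these markers in those results was not tested. In bulk RNA, fewer cells expressing a gene and less RNA of it per cell cannot be told apart.

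The largest differences among the 10 genes were in 3 of the 4 desaturases and in fatty acid synthase, and the elongases differed little. All 10 genes had a mean FPKM of 1 or more. On the log2 scale of (FPKM + 1), called the log2 ratio, 4 of the 10 (40.0%) were lower by at least 2-fold in the library labelled TRIP13 shRNA, and so were 4.19% of the 10671 protein-coding genes past the same filter. As the members were chosen on this contrast, nothing is read from that gap. The 4 genes were SCD, FADS2, FADS1 and FASN, with log2 ratios between -4.51 and -1.93. Of the 10, 0 were higher by at least 2-fold, beside 2.17% of the genes past the filter. The other members lay between -0.46 for ACACA and 0.38 for ELOVL6, well inside the 2-fold limits. The median over the 10 genes was -0.45, beside 0.12 over all genes past the filter. Setting the median ratio of all genes to 1 moved that 0.12 to 0.00 and gave 139 higher and 568 lower genes, 19.7% of the calls higher, in place of 232 and 447, 34.2% higher. Rescaling to TPM gave 277 and 956, 22.5% higher, over the 12183 genes whose mean TPM reached 1.

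**Figure D1:**
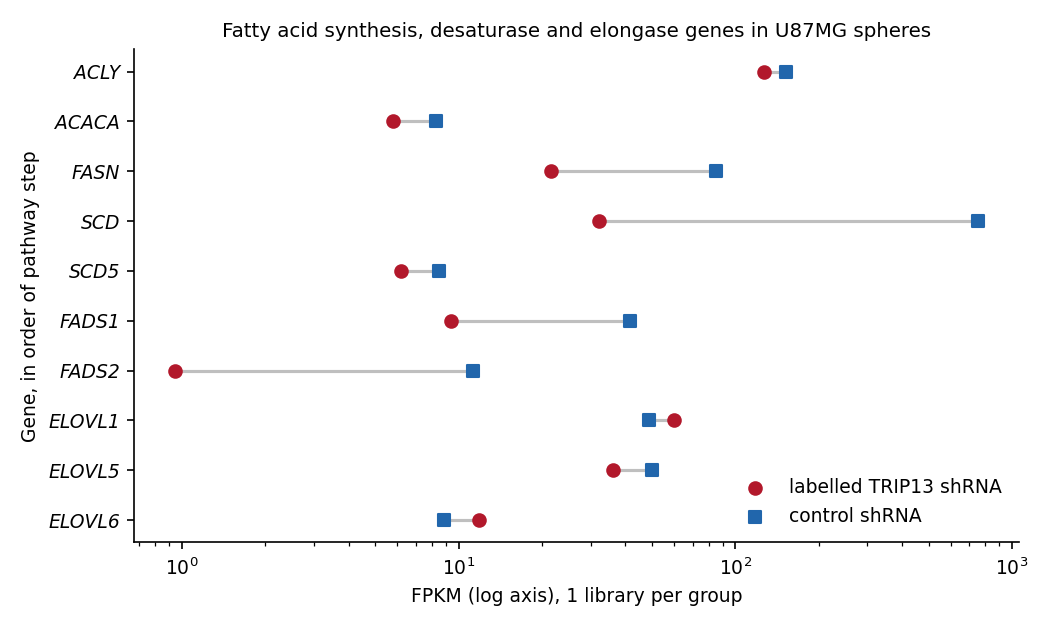
FPKM of the 10 genes on a log axis in the library labelled TRIP13 shRNA (red circles) and the control shRNA library (blue squares), 1 library each, with a grey line joining both values of a gene. SCD and FADS2 had 32.1 and 0.941 FPKM in the library labelled TRIP13 shRNA, against 756 and 11.3 FPKM in the control library, while the values of ACLY, SCD5 and the ELOVL genes lay close together.

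SCD (ENSG00000099194, chromosome 10, 100347124 to 100364834, plus strand), the stearoyl-CoA desaturase that makes oleate and palmitoleate, had the largest difference of the 10. Positions are those of the deposited table (hg38). Its level was 32.1 FPKM (3340 reads) in the library labelled TRIP13 shRNA and 756 FPKM (78568 reads) in the control library. It was thus 23.5-fold lower, with a 95% counting interval of 22.7 to 24.4 that covers counting error only. Among the genes past the filter its log2 ratio of -4.51 was the second lowest, rank 2 of 10671. By level it ranked 1417 in the library labelled TRIP13 shRNA, against 24 in the control library. The processed pseudogene SCDP1, to which SCD reads could be misassigned, had 0 reads in the library labelled TRIP13 shRNA, against 6 in the control library, so it holds too few reads to move these values.

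**Figure D2:**
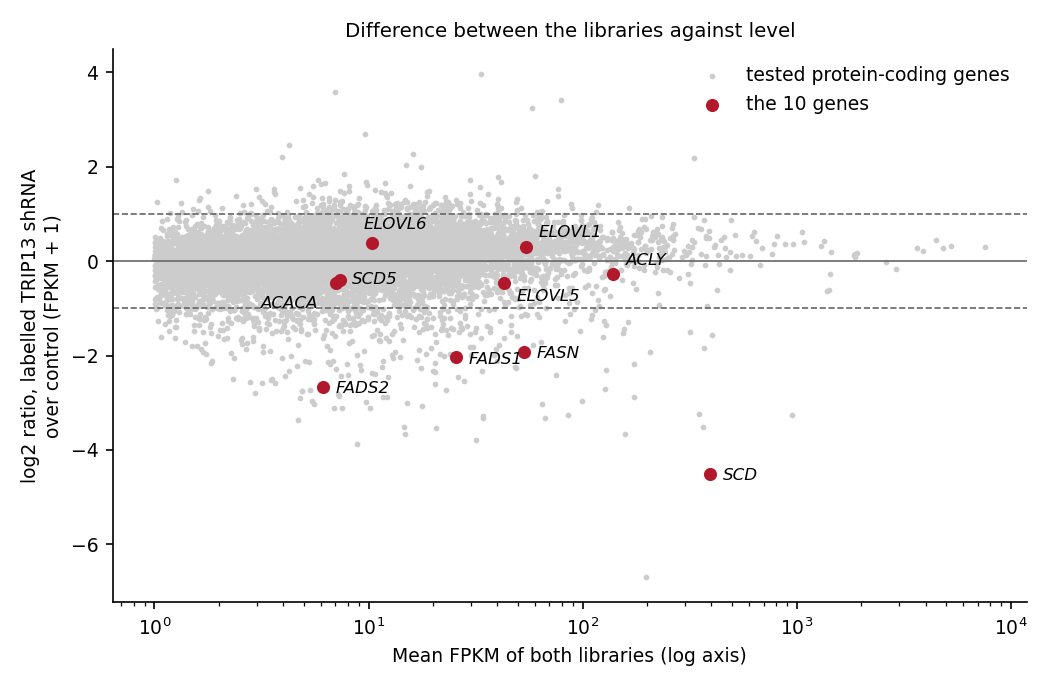
The log2 ratio of each gene (library labelled TRIP13 shRNA over control, FPKM + 1) against its mean FPKM on a log axis, with 10671 protein-coding genes in grey and the 10 fatty acid genes in red. Dashed lines mark log2 ratios of -1 and 1, and SCD lies at -4.51, rank 2 from the lowest.

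SCD5 (ENSG00000145284, chromosome 4, 82629539 to 82798857, minus strand), the other human stearoyl-CoA desaturase and a gene that mice lack, did not share this difference in size. Its level was 6.18 FPKM in the library labelled TRIP13 shRNA and 8.50 FPKM in the control library, from 514 and 707 reads. It was 1.38-fold lower (counting interval 1.23 to 1.54), a log2 ratio of -0.40 inside the 2-fold limits. The pool of both enzymes' transcripts differed in make-up as well as in level. SCD made up 83.9% of the summed FPKM of SCD and SCD5 in the library labelled TRIP13 shRNA, against 98.9% in the control library. SCD remained the more abundant of both in each library.

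The promoters of SCD and its paralog SCD5 are shown because these genes differed so unequally between the libraries. That of ACLY is shown as 1 of the members that hold as many CCAAT matches as SCD. The sequences are from RefSeq (GRCh38.p14), read from 5′ to 3′ on the strand of the gene, and cover the stretch before the annotated start that holds no GENCODE 29 exon. Capitals mark CCAAT or its reverse complement, the box bound by NF-Y, which is known to act with SREBP on lipid genes. They lie at chr10:100346983-100347123 (plus strand), chr4:82798858-82799046 (minus strand) and chr17:41919023-41919272 (minus strand).
SCD: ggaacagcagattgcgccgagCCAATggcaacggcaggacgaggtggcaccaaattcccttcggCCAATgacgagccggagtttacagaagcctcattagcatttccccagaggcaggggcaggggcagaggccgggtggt
SCD5: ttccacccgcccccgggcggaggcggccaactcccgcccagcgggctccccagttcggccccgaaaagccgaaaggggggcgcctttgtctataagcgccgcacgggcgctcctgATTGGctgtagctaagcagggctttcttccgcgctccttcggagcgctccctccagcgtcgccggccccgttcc
ACLY: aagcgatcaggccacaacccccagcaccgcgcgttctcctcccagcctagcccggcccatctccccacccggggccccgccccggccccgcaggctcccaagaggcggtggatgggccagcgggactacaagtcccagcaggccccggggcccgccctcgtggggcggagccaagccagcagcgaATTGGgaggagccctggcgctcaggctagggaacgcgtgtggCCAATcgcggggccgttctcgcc
In the 250 bases before its start SCD held 2 CCAAT matches, which begin 229 and 186 bases before it, and SCD5 held 1. ACLY held 2, as did ELOVL5 and 1 window of ACACA, and each of these genes lay inside the 2-fold limits. CCAAT was found on either strand in 32.0% of 35116 RefSeq windows of the same length, and at least 2 matches in 9.53%. FASN had no entry, so its promoter was not searched. The 9 members with an entry had 13 windows, of which the 2 of ACLY overlap, as do the 2 of FADS2. CCAAT was found in 8 of the 13 (61.5%), and FADS1, FADS2 and ELOVL6 had none. GGGCGG, the letters of a GC box, was found in 10 of the 13 (76.9%) and in 42.6% of all windows. TCACNCCAC, the letters of a sterol regulatory element, was found in 0 of the 13 and in 0.883% of all windows. The shorter CACNCCAC, contained in it, was found in 2 of the 13 (15.4%), for SCD and ACACA, and in 4.87% of all windows. The E-box CACGTG was found in 1 of the 13 (7.69%), for ELOVL5, and in 6.34% of all windows. FADS1 and FADS2, both lower by at least 2-fold, held only GGGCGG of these motifs in their windows. The matches are letters in a window and say nothing on binding.

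FASN (ENSG00000169710, chromosome 17, 82078333 to 82098332, minus strand), the multi-domain synthase that makes palmitate, had the smallest difference of the 4 genes past the limit. Its level was 21.5 FPKM (3910 reads) in the library labelled TRIP13 shRNA and 84.8 FPKM (15391 reads) in the control library, a ratio of 0.254 (0.245 to 0.263) or 3.94-fold lower. The enzymes before it differed less. ACLY (ENSG00000131473, chromosome 17, 41866908 to 41930542, minus strand), which splits citrate to acetyl-CoA, had 127 FPKM in the library labelled TRIP13 shRNA and 152 FPKM in the control library, 1.20-fold lower (1.17 to 1.23). ACACA (ENSG00000278540, chromosome 17, 37084988 to 37406818, minus strand), the acetyl-CoA carboxylase that makes malonyl-CoA, had 5.78 FPKM in the library labelled TRIP13 shRNA and 8.29 FPKM in the control library, 1.44-fold lower (1.34 to 1.54). The 3 genes stand in consecutive steps, and the last of them carried the difference past the 2-fold limit.

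FADS2 and FADS1, the front-end desaturases that act in turn on linoleate and linolenate, were both lower. FADS2 (ENSG00000134824, chromosome 11, 61792980 to 61867354, plus strand), the first of them, had 0.941 FPKM (201 reads) in the library labelled TRIP13 shRNA and 11.3 FPKM (2415 reads) in the control library. It was 12.01-fold lower (10.4 to 13.9) by reads, the second largest difference of the 10. Its log2 ratio was -2.66, held back by the added 1 FPKM, and it ranged from -3.55, from reads with 5 added, to -1.46 with 5 FPKM added. FADS1 (ENSG00000149485, chromosome 11, 61799625 to 61829318, minus strand), which completes arachidonate, had 9.39 FPKM (1862 reads) in the library labelled TRIP13 shRNA and 41.7 FPKM (8258 reads) in the control library, 4.435-fold lower (4.22 to 4.67). The annotated exons of FADS1 and FADS2 overlap on opposite strands, with 5.57% and 4.89% of their merged lengths shared with other genes, and the strand setting is not given in the sources used here. Reads in those stretches cannot be assigned to either gene with certainty.

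None of the 3 elongases passed the 2-fold limits. Of the 3, 2 were above 0, as were 6429 of the 10671 genes past the filter. ELOVL6 (ENSG00000170522, chromosome 4, 110045846 to 110199199, minus strand), which extends palmitate to stearate and so supplies SCD, had 11.8 FPKM in the library labelled TRIP13 shRNA and 8.85 FPKM in the control library, a ratio of 1.33 (1.24 to 1.44). ELOVL1 (ENSG00000066322, chromosome 1, 43363397 to 43368074, minus strand), which makes very long saturated chains for sphingolipids, had 60.1 FPKM in the library labelled TRIP13 shRNA and 48.7 FPKM in the control library, a ratio of 1.24 (1.17 to 1.305). ELOVL5 (ENSG00000012660, chromosome 6, 53267398 to 53349179, minus strand), which lengthens polyunsaturated acids between the FADS2 and FADS1 steps, had 36.2 FPKM in the library labelled TRIP13 shRNA and 50.01 FPKM in the control library, 1.38-fold lower (1.31 to 1.45). The interval of each left out both 1 and the depth ratio of 1.055, but it covers counting error only.

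The order of the 10 genes by FPKM also differed. ACLY, ELOVL1, ELOVL5 and SCD came first in the library labelled TRIP13 shRNA, while SCD, ACLY, FASN and ELOVL5 came first in the control library. SCD stood at 1.49 times FASN per length in the library labelled TRIP13 shRNA (counting interval 1.42 to 1.56) and 8.91 times in the control library (8.76 to 9.07). SCD stood at 5.20 times SCD5 (4.74 to 5.72) in the library labelled TRIP13 shRNA and 88.95 times (82.6 to 95.9) in the control library. ELOVL6 was at 0.548 of the FASN level (0.518 to 0.581) in the library labelled TRIP13 shRNA and 0.104 of it (0.0985 to 0.111) in the control library. ELOVL5 was at 3.86 times FADS1 (3.64 to 4.10) in the library labelled TRIP13 shRNA and 1.20 times (1.15 to 1.25) in the control library. These ratios compare genes in the same library, so the depth difference does not enter them. Summed over the 10 genes the level was 311 FPKM in the library labelled TRIP13 shRNA and 1170 FPKM in the control library. SCD made up 10.3% of that sum in the library labelled TRIP13 shRNA, against 64.6% in the control library, and without SCD the sum was 279 FPKM in the library labelled TRIP13 shRNA and 414 FPKM in the control library.

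**Figure D3:**
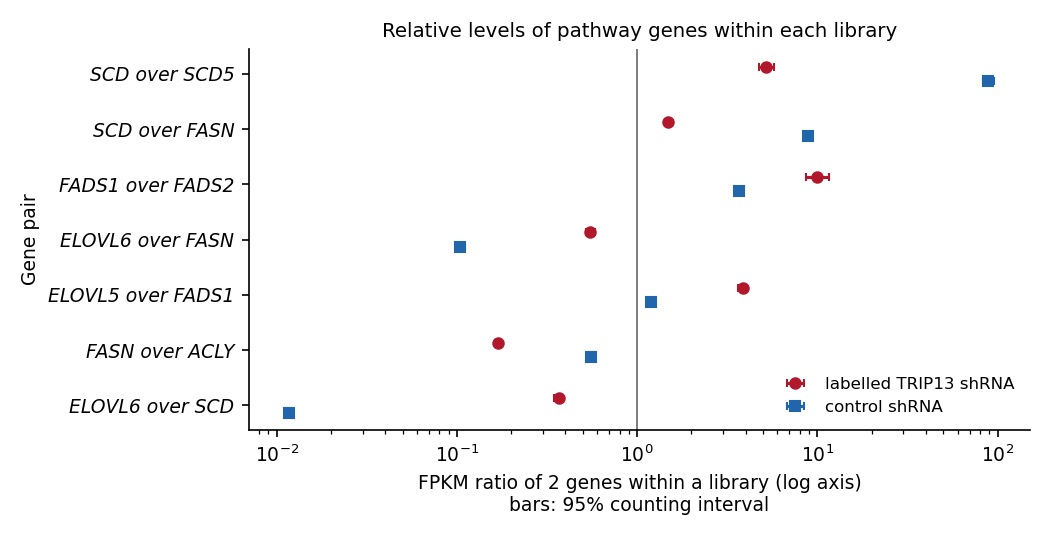
FPKM of one gene over another within the same library on a log axis, for the library labelled TRIP13 shRNA (red circles) and the control shRNA library (blue squares), with 95% counting intervals as bars. SCD over SCD5 was 5.20 and FADS1 over FADS2 was 9.98 in the library labelled TRIP13 shRNA, against 88.95 and 3.69 in the control library.

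FADS1 stood at 9.98 times FADS2 (8.63 to 11.6) in the library labelled TRIP13 shRNA and 3.69 times (3.52 to 3.86) in the control library. The merged exons behind these values, 10230 bases for FADS1 and 11026 for FADS2, are longer than the longest protein-coding transcripts of 4525 and 3630 bases. With those transcripts as lengths the ratio was 7.43 in the library labelled TRIP13 shRNA, against 2.74 in the control library, so FADS1 stayed above FADS2 in each. A change of length scales both libraries by the same factor, so it could not alter the order of the libraries.

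FADS1, FADS2 and FADS3 lie side by side on chromosome 11, and the difference did not extend evenly over their neighbours. FADS2 spans FADS1, which lies on the opposite strand. FADS3, a less understood member of the family next to them, had 9.38 FPKM in the library labelled TRIP13 shRNA and 14.7 FPKM in the control library, a log2 ratio of -0.60. FEN1, a replication endonuclease on the strand of FADS2 whose exons overlap with it, was higher with 57.2 FPKM in the library labelled TRIP13 shRNA and 29.03 FPKM in the control library. TMEM258, on the far side of FEN1, had 22.4 FPKM in the library labelled TRIP13 shRNA and 23.0 FPKM in the control library. Of the 9 genes past the filter within 100 kb, counting FADS1 and FADS2, only those 2 had a log2 ratio of -1 or less. BEST1 had 185 reads in the library labelled TRIP13 shRNA and 384 reads in the control library. Its log2 ratio was -0.64, held back by the added 1 FPKM. SCD likewise stood apart from its nearest expressed neighbours. BLOC1S2 had 25.3 FPKM in the library labelled TRIP13 shRNA and 10.7 FPKM in the control library, which makes it higher by at least 2-fold. NDUFB8 had 4.31 FPKM in the library labelled TRIP13 shRNA and 3.77 FPKM in the control library. FASN had DUS1L and CCDC57 as nearest neighbours, at 19.4 and 4.92 FPKM in the library labelled TRIP13 shRNA, against 10.6 and 6.04 FPKM in the control library.

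**Figure D4:**
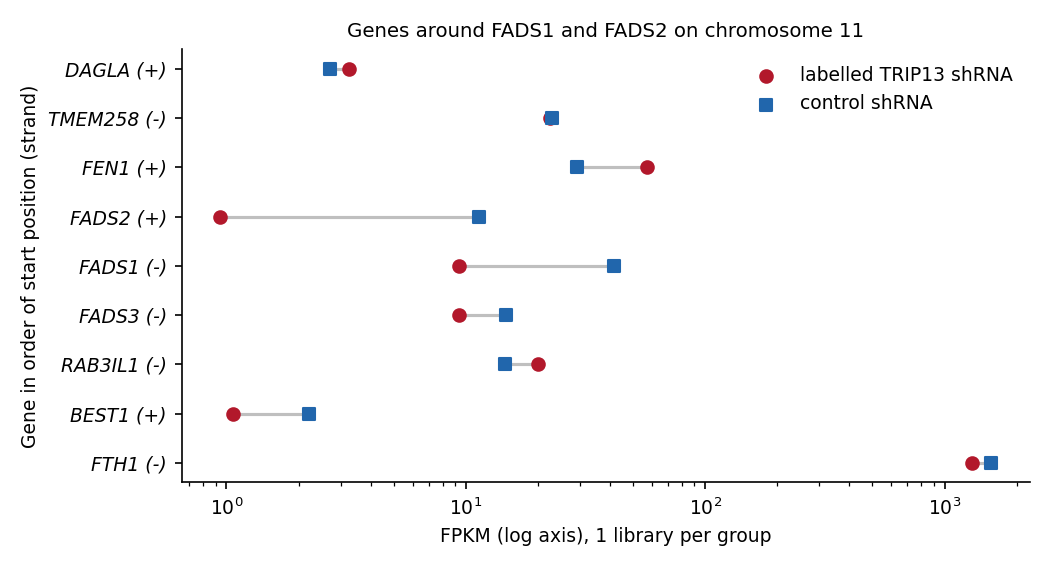
FPKM on a log axis of the 9 expressed protein-coding genes within 100 kb of FADS1 and FADS2, in order of position with their strand, in the library labelled TRIP13 shRNA (red circles) and the control shRNA library (blue squares). FADS2 and FADS1 were far lower in the library labelled TRIP13 shRNA, and FEN1 next to them was higher there, at 57.2 FPKM against 29.03 FPKM in the control library.

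Some other genes of fatty acid synthesis and elongation were also lower by at least 2-fold. Of 22 listed genes 16 passed the filter, and 3 of them were lower by at least 2-fold (18.8%, beside 4.19% of all genes) and 0 higher. Their median was -0.20, beside 0.12 over all genes. The count of lower genes was 2 in place of 3 with a pseudocount of 5 or a mean FPKM of 5 or more. ACSS2, which makes acetyl-CoA from acetate, had 7.93 FPKM in the library labelled TRIP13 shRNA and 31.1 FPKM in the control library, 3.92-fold lower (3.63 to 4.24). SLC25A1, the carrier that exports citrate from mitochondria, had 34.2 FPKM in the library labelled TRIP13 shRNA and 76.2 FPKM in the control library. ELOVL3, an elongase of saturated chains, was the remaining one, with 38 reads in the library labelled TRIP13 shRNA and 104 reads in the control library. So 2 of these 3 genes supply carbon for synthesis. Enzymes that complete each elongation round differed little. The dehydratase HACD2 had 11.1 FPKM in the library labelled TRIP13 shRNA and 7.61 FPKM in the control library, and neither it nor the reductase TECR passed the limits. TECR had 19.35 FPKM in the library labelled TRIP13 shRNA and 22.5 FPKM in the control library. ACACB, the carboxylase of the mitochondrial surface, had 2.05 FPKM in the library labelled TRIP13 shRNA and 1.24 FPKM in the control library. The electron donors of the desaturases, CYB5A, CYB5B and CYB5R3, had 2.58, 21.0 and 35.01 FPKM in the library labelled TRIP13 shRNA, against 2.21, 18.7 and 39.9 FPKM in the control library. None of these 3 passed the 2-fold limits.

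**Figure D5:**
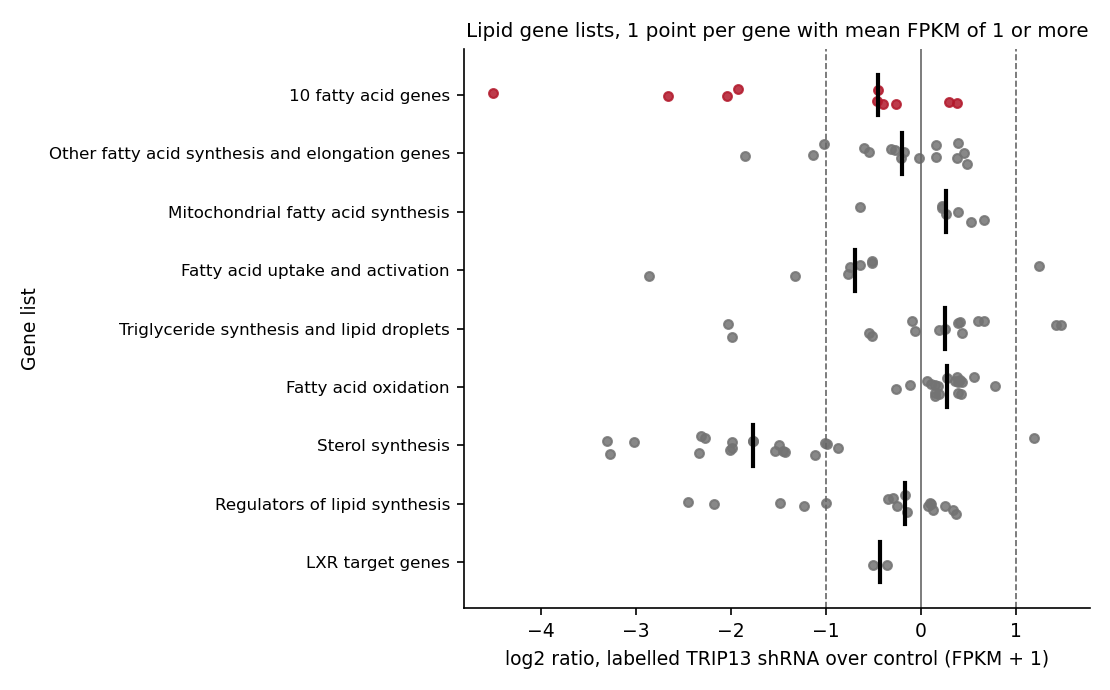
Log2 ratio (library labelled TRIP13 shRNA over control, FPKM + 1) of expressed genes in 9 lipid gene lists, 1 point per gene, with the 10 fatty acid genes in red and the list median as a black bar. Dashed lines mark -1 and 1. Sterol synthesis has its median at -1.77 and fatty acid oxidation at 0.28.

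Of the genes that burn fatty acids, or make them in mitochondria, none passed the 2-fold limits, as few would at the shares over all genes (4.19% lower and 2.17% higher). Of 20 listed genes of fatty acid oxidation 19 passed the filter, 0 of them beyond the limits in either direction. Of these 17 lay above 0, beside 6429 of the 10671 genes past the filter. The median was 0.28, beside 0.12 over all genes. CPT1A, which admits fatty acids to mitochondria, had 39.9 FPKM in the library labelled TRIP13 shRNA and 22.8 FPKM in the control library. CPT1C, its brain form, had 7.52 FPKM in the library labelled TRIP13 shRNA and 9.23 FPKM in the control library. All 7 genes of mitochondrial fatty acid synthesis passed the filter, 0 of them beyond the limits, with a median of 0.26 beside 0.12 over all genes. NDUFAB1, the acyl carrier protein, and CBR4 were at the ends of that list, with 53.05 and 3.89 FPKM in the library labelled TRIP13 shRNA, against 33.0 and 6.62 FPKM in the control library.

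Most genes of uptake and activation were below 0, while those of storage lay on both sides, as did all genes past the filter. Of 16 listed uptake and activation genes 8 passed the filter, 2 of them lower (25%) and 1 higher (12.5%) by at least 2-fold, beside 4.19% lower and 2.17% higher over all genes. Of the 8, 7 lay below 0, beside 4222 of the 10671 genes past the filter. Their median was -0.70, beside 0.12 over all genes. Rescaled to TPM, with the filter applied to the TPM values, 4 were lower in place of 2. FABP3, a fatty acid binding protein, and ACSL3, an acyl-CoA synthetase of lipid droplets, had 2.16 and 12.2 FPKM in the library labelled TRIP13 shRNA, against 22.1 and 32.3 FPKM in the control library. The transporter SLC27A4 had 29.5 FPKM in the library labelled TRIP13 shRNA and 11.95 FPKM in the control library. Of 19 listed genes of triglyceride synthesis and lipid droplets 15 passed the filter, 2 lower and 2 higher by at least 2-fold (13.3% each), beside 4.19% lower and 2.17% higher over all genes. Of the 15, 9 lay above 0 and 6 below, beside 6429 above and 4222 below of the 10671 genes past the filter. The median was 0.25, beside 0.12 over all genes. With a pseudocount of 5, or a mean FPKM of 5 or more, 1 was higher in place of 2. GPAT3 and GPAM, which add the first acyl chain to glycerol phosphate, had 28.6 and 5.79 FPKM in the library labelled TRIP13 shRNA, against 9.61 and 1.54 FPKM in the control library. LPIN1, a phosphatidate phosphatase, and PNPLA3, a lipid droplet hydrolase, had 4.58 and 4.90 FPKM in the library labelled TRIP13 shRNA, against 21.1 and 23.1 FPKM in the control library.

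Regulators of the pathway were lower in part. Of 18 listed 17 passed the filter, 5 of them lower by at least 2-fold (29.4%) and 0 higher, beside 4.19% lower and 2.17% higher over all genes, with a median of -0.17. The 5 were SREBF2, INSIG1, PPARA, NR1H3 and SREBF1. SREBF1, which encodes the SREBP form tied to fatty acid genes, had 11.3 FPKM in the library labelled TRIP13 shRNA and 23.6 FPKM in the control library, which puts it at the 2-fold limit itself. With a pseudocount of 5 the count was 2 in place of 5. SREBF2, the form tied to sterol genes, had 7.401 FPKM in the library labelled TRIP13 shRNA and 44.9 FPKM in the control library. INSIG1, an SREBP target that retains SREBP in the endoplasmic reticulum, had 62.4 FPKM in the library labelled TRIP13 shRNA and 287 FPKM in the control library. SCAP, the escort of SREBP, differed little, with 15.5 FPKM in the library labelled TRIP13 shRNA and 14.1 FPKM in the control library. PPARA and NR1H3, nuclear receptor genes of lipid metabolism, had 1.48 and 3.71 FPKM in the library labelled TRIP13 shRNA, against 5.93 and 10.1 FPKM in the control library. Of 4 listed LXR targets 2 passed the filter, ABCA1 and LPCAT3, both inside the limits, with a median of -0.43 beside 0.12 over all genes. They had 20.9 and 3.19 FPKM in the library labelled TRIP13 shRNA, against 30.1 and 4.37 FPKM in the control library. MYLIP, below the filter, had 22 reads in the library labelled TRIP13 shRNA and 51 reads in the control library. ABCG1 had 0 reads in both. Of 20 sterol synthesis genes, all past the filter, 17 were lower (85%) and 1 higher by at least 2-fold, beside 4.19% lower and 2.17% higher over all genes, with a median of -1.77 beside 0.12. With 1 library per group that share could not be tested against the 4 of 10 of the fatty acid genes.

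Most markers of other cell types were at or near 0, and their part in the results was not tested. The summed level of 6 adipocyte markers was 1.445 FPKM in the library labelled TRIP13 shRNA and 3.64 FPKM in the control library, with ADIPOQ at 0 reads in the library labelled TRIP13 shRNA and 1 read in the control library. LIPE, a lipase gene also used outside adipocytes, was the one that passed the filter, with 96 reads in the library labelled TRIP13 shRNA and 211 reads in the control library. The sum over 5 oligodendrocyte markers was 0.114 FPKM in the library labelled TRIP13 shRNA and 0.292 FPKM in the control library, with MOG at 0 in both. The sum over 5 hepatocyte markers was 0.456 FPKM in the library labelled TRIP13 shRNA and 0.841 FPKM in the control library, with ALB at 0 in both. Over 6 microglia and macrophage markers it was 3.61 FPKM in the library labelled TRIP13 shRNA and 4.23 FPKM in the control library, with AIF1, CX3CR1 and P2RY12 at 0 in both. CSF1R, the receptor for colony-stimulating factor, made up most of that sum and passed the filter, with 330 reads in the library labelled TRIP13 shRNA and 374 reads in the control library.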

How the data were processed

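Gene expression was measured by RNA sequencing of 2 libraries of total RNA (NEBNext Ultra kit), per the labels' protocols. The authors deposited FPKM values for 58735 genes. Tools named per the submitters' processing notes are edgeR, featureCounts 1.5.0-p3 and HISAT2 2.0.5, and the build is hg38. The annotation and the use of strand were not given in the sources used here. Gene lengths in the deposited table equalled merged GENCODE 29 exons for the members, and positions equalled that release for 58735 genes.

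FPKM times length was a whole multiple of 51.5981 in both libraries for 100% of values within 0.001 of a read, which gave the reads. FPKM was thus divided by 1 common total. The log2 ratio used a pseudocount of 1 and the 10671 of 19951 protein-coding genes whose mean FPKM reached 1. A log2 ratio of 1 or more, or -1 or less, counted as at least 2-fold. The 95% interval of a ratio is the exact Clopper-Pearson one on the share of reads and covers counting error only. With 1 library per group there was no test. The calculation was tested on simulated data.

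The members and lists were chosen with earlier results of these data known. Besides the members, TRIP13, SREBF1, SREBF2 and INSIG1, up to 2 genes at each end of each list were named. Exceptions were sterol synthesis, of which no gene was named, and the regulators, of which none at the high end was named. Genes named beyond that rule, among them NR1H3, PPARA, ELOVL3, SCAP, TECR, the electron donors, the cell type markers, the pseudogene and the neighbours, were chosen after their values were seen. Protein sequences were not analysed here. Versions were matplotlib 3.10.9, scipy 1.17.1, pandas 2.3.3 and numpy 2.4.6 under Python 3.11.15.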

Additional observations from a re-analysis of the deposited data

How the results depend on the processing

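No paired analysis was possible because there is 1 library per group. Alternatives were pseudocounts of 0.1 and 5, own read totals, a median ratio of 1, TPM, reads with 5 added, no filter and a mean FPKM of 5 or more. The filter was applied to rescaled values, so 12183 genes passed it as TPM in place of 10671. Under all of them the 10 genes held 4 lower and 0 higher by at least 2-fold, and 0 of 60 alternative values of single members changed direction, while 29 moved by more than counting error. The median log2 ratio of the 10, -0.45, was -0.36 with a pseudocount of 5, -0.58 with a median ratio of 1 and -0.60 as TPM. Of the other lists' counts, 124 of 128 stayed within 1.5 times, many of them because they were 0 under every setting. Within that span sterol synthesis had 12 lower genes with a pseudocount of 5 and 19 with a median ratio of 1, in place of 17. The other genes of fatty acid synthesis and elongation had 2 lower in place of 3 with a pseudocount of 5 or a mean FPKM of 5 or more. The counts outside it were as follows. Uptake and activation had 4 lower genes as TPM in place of 2, triglyceride synthesis 1 higher gene in place of 2 with a pseudocount of 5 or a mean FPKM of 5 or more, and the regulators 2 lower genes in place of 5 with a pseudocount of 5. From reads without length, SCD took 86.7% of both stearoyl-CoA desaturases in the library labelled TRIP13 shRNA, against 99.1% in the control library, in place of 83.9% and 98.9%. Over all genes past the filter the counts of 232 higher and 447 lower were 64 and 180 with a pseudocount of 5, 408 and 677 with 0.1, and 417 and 694 with reads. At this depth 3 reads on 1 kb are 0.155 FPKM and the lowest value among the 10, that of FADS2, rests on 201 reads.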
